A study of Mus musculus with 48 samples.

Results

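Cyclins, cyclin-dependent kinases (Cdk), Cdc genes, Mcm genes, kinesins (Kif) and centromere proteins (Cenp) were followed in the kidneys of mice given vancomycin, a glycopeptide antibiotic whose dose-limiting toxicity is to the kidney. Members were all named genes whose symbol begins with Cdc, Cdk, Mcm, Kif or Cenp, or with Ccn and a further letter, except Cdkn1a. The rule used the symbols and no measured difference. It gave 89 genes of the 7859 that could be named in the table used here, out of 184 such symbols on the whole array platform. A gene was tested where its log2 intensity exceeded 3.47, the median of the whole table, in at least 6 arrays, and 76 of the 89 members and 5745 of all named genes met this. Ccnf, Cdc25c, Cdk12, Cdk5r1, Cdkl3, Cdkl4, Cenpm, Cenpn, Kif17, Kif1a, Kif21b, Kif5a and Kif5c, 13 members in all, did not. Since a gene that met the minimum only in treated kidneys had to differ, counts are also given over all 89 members with no minimum, and over the 51 that exceeded 3.47 in all 48 arrays.

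Cell division is driven by Cdk enzymes that are switched on by cyclins made and destroyed in turn. Cdc6, Cdc7, Cdc45 and the Mcm helicase start DNA replication, Cdc25 phosphatases activate Cdk enzymes, and Cdc20 directs the anaphase-promoting complex to its targets. Centromere proteins build the site on each chromosome to which the spindle attaches, and mitotic kinesins are motors that build and move the spindle. The same prefixes also cover genes with no direct part in division, such as the transcription kinases Cdk7 and Cdk9, kinesins that carry cargo along microtubules, and the effectors of the small GTPase Cdc42. Most tubule cells of the adult kidney are quiescent, and tubule injury is known to bring surviving tubule cells, and interstitial cells, back into the cycle.

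Whole kidneys of female BALB/c mice were measured, 1 mouse per array. There were 8 groups of 6 mice, which received 7 daily doses of saline or of vancomycin at 50, 200 or 400 mg/kg, either intravenously (iv) or intraperitoneally (ip), and were killed on day 8. No genetic change, age or batch is named in the labels. Intensities had been made with GCRMA by the authors and were taken to log2. Log2 intensities at the 90th percentile ran from 8.28 to 8.75 on the iv arrays but from 9.07 to 9.23 on the ip arrays, and levels were therefore compared within a route only. Leaving out the array with the highest median of each iv group (mice 1, 9, 27 and 44) gave 38 members called at iv 400 mg/kg and 48 at ip 400 mg/kg against 39 and 44 with them. Kidney markers were high where a kidney should have them. The log2 of the summed intensity of 10 proximal tubule markers lay between 14.75 and 15.75 in the 12 saline mice.

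At 400 mg/kg all 5 replication genes tested (Cdc6, Cdc7, Cdc45, Mcm2 and Mcm3), all 3 mitotic kinesins and all 3 cell cycle kinases rose by both routes, as did 5 of the 9 centromere proteins. Ccna2 (cyclin A2, which drives S phase and entry into mitosis), Cdca5 (sororin, which holds sister chromatids together), Cenpf (a kinetochore protein of late G2 and mitosis) and Cdc20 had the largest rises among members by each route, between 2.87 and 4.84 on the log2 scale. By the iv route 36 of 76 members rose and 3 fell at an adjusted p under 0.05 (limma's moderated test with Benjamini-Hochberg adjustment over all genes tested, as in every call that follows). By the ip route 37 rose and 7 fell. Of all genes tested, 30.7% rose and 19% fell at iv 400 mg/kg, and 36.3% rose and 25.1% fell at ip 400 mg/kg. The share of members called in either direction, 51.3% and 57.9%, was therefore close to that of all genes, 49.7% and 61.3%. Of the members, 3.95% fell by iv and 9.21% by ip. The median log2 change of the 76 members was 0.32 by iv and 0.29 by ip, beside 0.09 and 0.11 over all genes tested.

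With no minimum on intensity, 39 of the 89 members rose and 3 fell at iv 400 mg/kg, beside 22.5% and 13.8% of all named genes. At ip 400 mg/kg 42 rose and 14 fell, beside 28.2% and 33.1%. Among the 51 members above 3.47 in every array, 17 rose and 3 fell at iv 400 mg/kg, beside 29.1% and 20.5% of all such genes. At ip 400 mg/kg 19 of the 51 rose and 7 fell, beside 33.7% and 26.3%. In that stricter set the share rising, 33.3% and 37.3%, was near the background. Of the 36 risers by iv, 16 had a saline mean under 3.47, as did 14 of the 37 by ip. Whole kidney was measured, so more or fewer cells of a type and more or less RNA per cell cannot be told apart.

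In all, 32 members rose by both routes, beside 26.6% of all genes tested. Ccnc, Ccnd1 and Cdkal1 fell by both, beside 16.3% of all genes tested. Of the members, 0 were called in opposite directions, and the share of all genes so called is not given here. All 6 treated mice lay above every saline mouse in 19 of the iv risers and in 30 of the ip risers. The same count over all genes is not given here, so these numbers do not set the members apart. The members were divided into 7 lists with a direct role in division (S-phase and mitotic cyclins, cell cycle Cdks, Cdc replication factors, Mcm helicase subunits, Cdca genes, mitotic kinesins and centromere proteins) and the remaining roles. The division was made with these results known and is a description. It counts the D-type cyclins, the Cdc25 phosphatases and the anaphase-promoting complex genes, Cdc20 among them, with the other roles. Of all 28 members with a division role, 24 rose and 0 fell by iv with no minimum, and 24 rose and 1 fell by ip. Of the other 61 members, 15 rose and 3 fell at iv 400 mg/kg, against 18 that rose and 13 that fell at ip 400 mg/kg. Of the 51 of these that met the minimum, 16 rose and 6 fell by ip. For comparison, with no minimum 22.5% of all named genes were called upward and 13.8% downward at iv 400 mg/kg. At ip 400 mg/kg these shares were 28.2% and 33.1%. The median log2 changes by iv and ip among those tested were 1.1 and 1.25 in the division lists and 0.14 and 0.03 in the others. Some division genes met the minimum mainly at 400 mg/kg, which raises these medians. With no minimum they were 1.04 and 1.17, against 0.11 and -0.01. Among members above 3.47 in every array they were 0.86 and 0.83, against 0.14 and 0.06. That stricter set holds only 8 of the 28 division members. The iv 400 mg/kg comparison called 5 of the 8 upward and 0 downward, and the ip one called 6 upward and 1 downward. Most division members were therefore at or under 3.47 in some array, and most of the rises counted above are theirs. The D-type cyclin, Cdc25 phosphatase and anaphase-promoting complex lists were also moved to the division side, a grouping added after seeing the data. With no minimum, 28 of 37 members were then up and 1 down at iv 400 mg/kg, with 29 up and 2 down at ip 400 mg/kg. Of the remaining 52, 11 rose and 2 fell by the first route and 13 rose and 12 fell by the second.

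**Figure D1:**
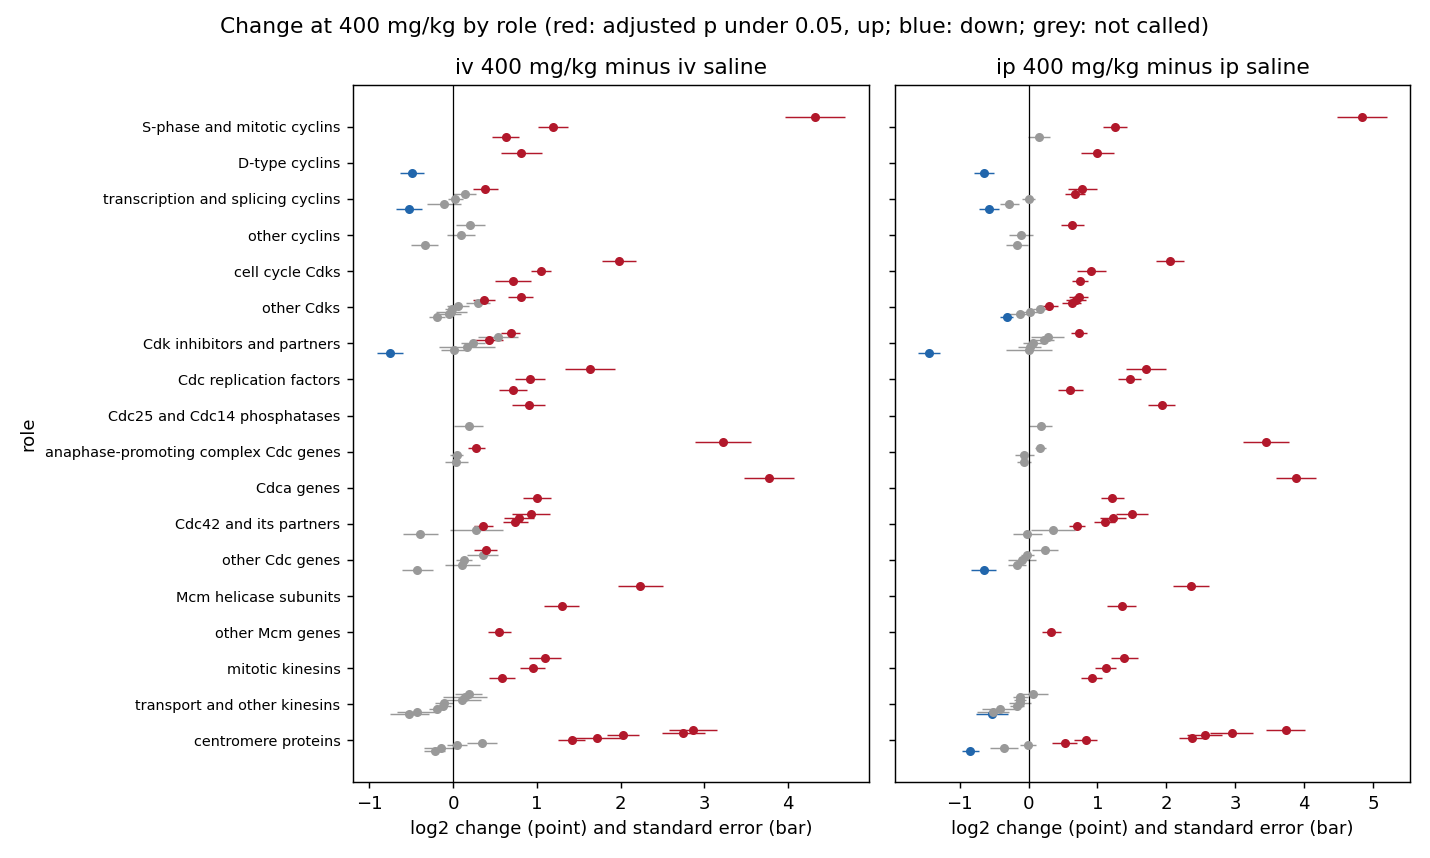
Log2 change at 400 mg/kg against the same route's saline group for the 76 members tested, ordered by role (points, with standard error bars; left iv, right ip; red rose and blue fell at adjusted p under 0.05, grey was not called). Cyclin, Cdk, replication, Cdca, mitotic kinesin and centromere lists hold most of the red points, and the transport kinesins lie near 0 or below.

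The promoters of members that rose are shown because they moved together and because cell cycle genes of late G2 and mitosis are known to carry a cell cycle homology region (CHR) near the start of transcription, often with a CCAAT box upstream. RefSeq promoters (build GRCm38.p6, the table's own, the build behind the array annotation not being given in the sources used here) were found for 73 of the 89 members. The 250 bases before each start were searched on both strands for the CHR, spelled TTTGAA or as the variant TTCGAA, for the CCAAT box, and for an E2F element. The E2F element was spelled TTCCCGC in its first form, with TTCGCGC as the next, TTGCCGC as another and TTGGCGC as the last. The last of these can overlap a CCAAT box read on the other strand. Risers on certain chromosomes were set aside before the choice, so a larger rise there would not be shown. The 4 sequences are those with the largest rise at ip 400 mg/kg among the remaining risers with a CHR and only 1 listed promoter. Each is the 250 bases before the start, read 5′ to 3′ on the gene's strand, and capitals mark the CHR, which reads TTCAAA from the other strand, and the CCAAT box, which then reads ATTGG.
Cdca5, chr19:6084847-6085096, plus strand: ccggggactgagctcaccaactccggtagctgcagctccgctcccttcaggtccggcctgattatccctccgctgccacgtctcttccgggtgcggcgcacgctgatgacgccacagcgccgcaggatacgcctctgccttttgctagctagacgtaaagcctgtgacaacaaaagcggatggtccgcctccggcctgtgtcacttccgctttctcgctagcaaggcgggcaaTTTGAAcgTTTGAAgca
Cdc20, chr4:118437344-118437593, minus strand: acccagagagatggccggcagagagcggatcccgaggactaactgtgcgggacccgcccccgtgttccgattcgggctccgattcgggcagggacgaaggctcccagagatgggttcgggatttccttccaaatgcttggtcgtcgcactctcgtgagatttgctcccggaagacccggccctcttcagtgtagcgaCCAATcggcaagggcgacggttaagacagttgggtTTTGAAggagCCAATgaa
Kif22, chr7:127042421-127042670, minus strand: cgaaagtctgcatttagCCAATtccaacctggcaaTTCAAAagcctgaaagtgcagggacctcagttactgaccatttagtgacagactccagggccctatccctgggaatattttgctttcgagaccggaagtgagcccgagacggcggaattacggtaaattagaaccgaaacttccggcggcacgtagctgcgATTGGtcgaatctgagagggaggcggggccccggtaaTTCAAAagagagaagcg
Mcm2, chr6:88898781-88899030, minus strand: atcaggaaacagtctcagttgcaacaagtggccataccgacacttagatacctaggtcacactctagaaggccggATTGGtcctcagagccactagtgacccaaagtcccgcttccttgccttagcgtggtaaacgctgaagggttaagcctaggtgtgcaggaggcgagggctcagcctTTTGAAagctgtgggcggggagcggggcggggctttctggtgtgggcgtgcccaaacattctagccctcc

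The CHR began 9 and 17 bases before the start in Cdca5, 18 bases before it in Cdc20, 17 and 215 bases before it in Kif22, and 70 bases before it in Mcm2. Cdc20 and Kif22 each held 2 CCAAT boxes, Mcm2 held 1 and Cdca5 held 0. Of the 32 members with a promoter that rose at ip 400 mg/kg, 9 held a CHR (28.1%), 17 a CCAAT box (53.1%) and 8 an E2F element (25%). Of the 33 tested members with a promoter that did not rise, 1 held a CHR (3.03%), 14 a CCAAT box (42.4%) and 5 an E2F element (15.2%). Over all 27025 genes with a promoter the shares were 19.6%, 37.5% and 9.01%, and over the 4653 such genes tested here 14.5%, 40% and 16.1%. A match of these letters is a description of the window, and no factor's binding was measured.

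Cyclins that act in S phase and mitosis were led by Ccna2. Its lowest, median and highest log2 intensities were 2.96, 3.04 and 3.28 in iv saline mice and 6.41, 7.51 and 7.78 at iv 400 mg/kg, and 1.97, 2.52 and 2.82 in ip saline mice and 6.48, 7.17 and 8.14 at ip 400 mg/kg. The groups did not overlap by either route. The rise was 4.32 ± 0.36 (SE, n = 6 mice a group, adjusted p = 2e-13 in limma) by iv and 4.84 ± 0.36 (adjusted p = 1.8e-15) by ip. Here and for all log2 changes below, limma's SE pools the spread of a gene over all 8 groups. It is not the spread of the compared mice alone. The SD of Ccna2 was 0.12 in iv saline mice, 0.51 at iv 400 mg/kg and 1.48 at iv 200 mg/kg. Every saline value lay under 3.47, so the size of the rise starts from a level near background. The second probe set for Ccna2 rose by 3.7 and 3.76. Ccne2 (cyclin E2, of the entry into S phase) had values of 3.02, 3.39 and 3.52 in iv saline mice and 3.92, 4.42 and 5.17 at iv 400 mg/kg, and rose by 1.19 by iv and 1.25 by ip. The related Ccne1 rose by 0.63 by iv (adjusted p = 0.00097), while its change by ip was 0.15 (adjusted p = 0.41), and the difference between routes was not called. Ccnf, whose product is the substrate-binding part of a ubiquitin ligase, did not meet the intensity minimum, and with no minimum it rose by 0.67 and 0.55.

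The D-type cyclins, which answer growth signals in G1, moved apart from each other. Ccnd1 had values of 10.38, 10.5 and 11.06 in iv saline mice and 9.72, 10.16 and 10.4 at iv 400 mg/kg, and 10.76, 10.87 and 11.29 in ip saline mice and 10.04, 10.31 and 10.67 at ip 400 mg/kg. In the iv groups 5 of 6 treated mice lay below every saline mouse, and in the ip groups all 6 did. It fell by 0.49 (adjusted p = 0.0035) and by 0.65 (adjusted p = 0.00011), and its second probe set fell by 0.61 and by 0.93. Ccnd2 rose by 0.82 and 1.00, with 4 of 6 iv mice and 6 of 6 ip mice above every saline mouse.

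The 3 cell cycle kinases that could be named all rose by both routes. Cdk6, a partner of the D-type cyclins, had values of 6.17, 6.81 and 7.06 in iv saline mice and 7.73, 8.78 and 9.4 at iv 400 mg/kg, and rose by 1.98 (3.95-fold) by iv and 2.05 (4.14-fold) by ip with no overlap of groups. Cdk4, the other such partner, had values of 8.55, 8.67 and 8.97 in iv saline mice and 9.52, 9.78 and 9.94 at iv 400 mg/kg. It rose by 1.05 ± 0.12 by iv and 0.74 ± 0.12 by ip, and its other 2 probe sets rose by 0.98 and 1.13 by iv and by 0.74 and 0.85 by ip. Cdk2, the partner of cyclins E and A, rose by 0.71 and 0.91. In each of the 3 genes every saline mouse lay above the table median.

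Genes that start DNA replication rose from low values. Cdc6, which loads the helicase at origins, had values of 2.65, 2.79 and 2.95 in iv saline mice and 2.95, 4.2 and 5.68 at iv 400 mg/kg, and 2.61, 2.69 and 2.74 in ip saline mice and 2.96, 4.81 and 5.57 at ip 400 mg/kg. The treated mice spread widely, and 1 iv mouse was at the saline level. Its rise was 1.63 by iv and 1.71 by ip. Cdc45, part of the active helicase, rose by 0.92 and 0.60, and 4 of 6 ip mice were above every saline mouse. Cdc7, the kinase that fires origins, rose by 0.71 and 1.47 by its leading probe set. Its second, which was under 3.47 in all 48 arrays, differed by -0.06 and -0.07. Mcm3 had values of 3.11, 3.2 and 3.3 in iv saline mice and 4.02, 5.63 and 6.59 at iv 400 mg/kg, and rose by 2.23 and 2.36 from saline values that all lay under 3.47. Its second probe set, also low, was higher by 1.31 and 0.87. Mcm2 had values of 3.81, 4.44 and 4.91 in iv saline mice and 4.61, 5.77 and 6.56 at iv 400 mg/kg, a rise of 1.30, while by ip it rose by 1.35. Mcmbp, a binding partner of the Mcm complex, rose by 0.55 and 0.33, and its ip call was lost when each array was centred on its median (adjusted p = 0.18) and without any of 4 of the 12 ip mice.

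**Figure D2:**
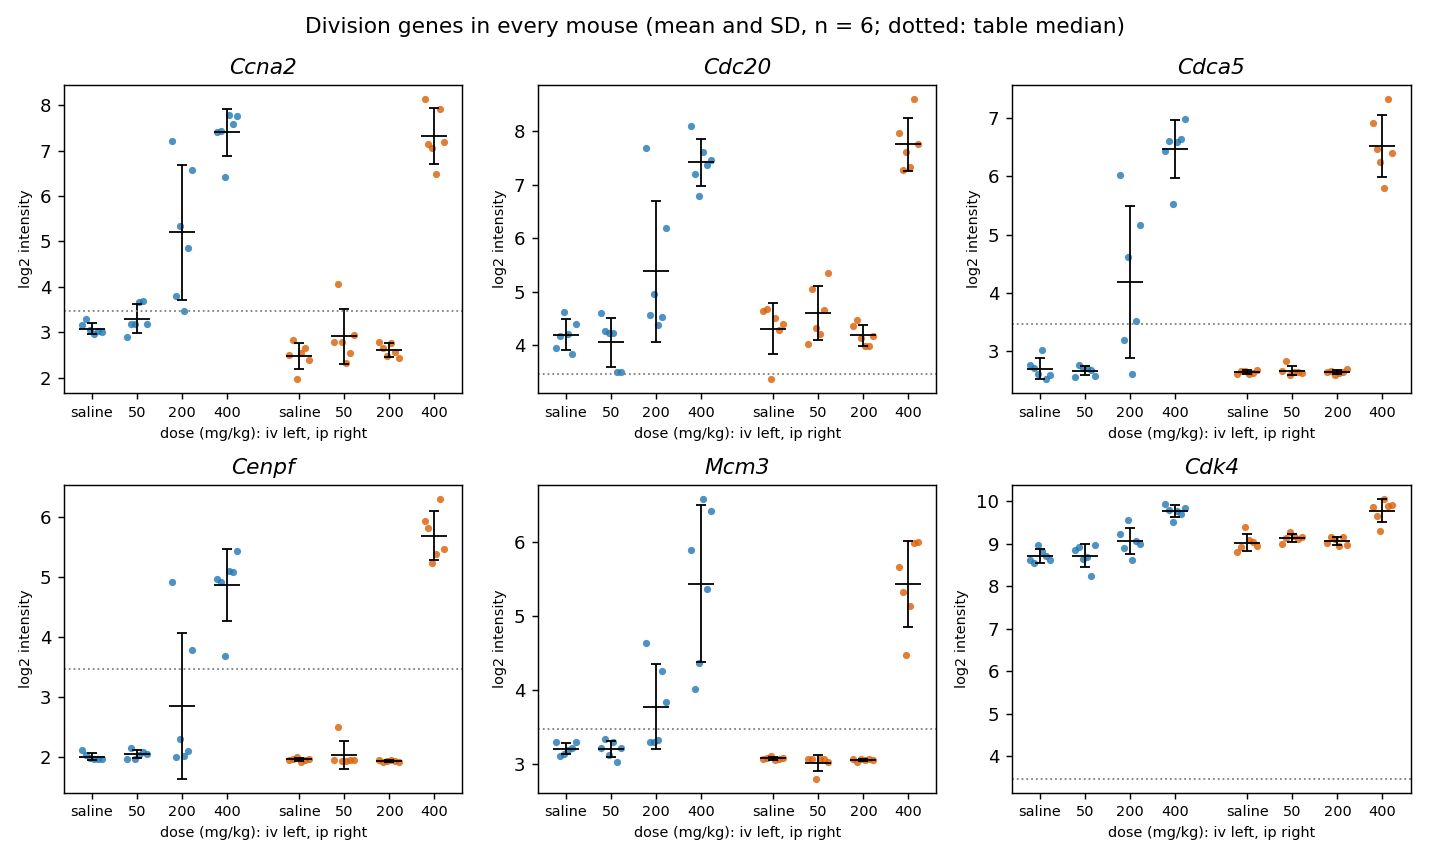
Log2 intensity of 6 division genes in every mouse (points; 6 mice a group, iv in blue, ip in orange), with mean and SD (black) and the table median (dotted, 3.47). All mice at 400 mg/kg lie above all saline mice of their route in Ccna2, Cdc20, Cdca5, Cenpf and Mcm3, and the iv 200 mg/kg mice are spread between the saline and 400 mg/kg levels.

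Of the genes that control entry into and exit from mitosis, Cdc20 had values of 3.84, 4.19 and 4.62 in iv saline mice and 6.78, 7.41 and 8.09 at iv 400 mg/kg, and 3.37, 4.45 and 4.68 in ip saline mice and 7.27, 7.68 and 8.6 at ip 400 mg/kg. It rose by 3.22 ± 0.34 (9.31-fold) by iv and 3.44 ± 0.34 (10.9-fold) by ip. Of the subunits of the anaphase-promoting complex that could be named, Cdc16 and Cdc27 were not called by either route among the genes that met the minimum. In the fit with no minimum Cdc16 was called up by ip, with means of 8.96 in ip saline mice and 9.13 at ip 400 mg/kg. Cdc27 rose by 0.47 by ip when its probe sets were averaged. Cdc26 rose by 0.28 by iv, a call lost without saline mouse 1 (adjusted p = 0.094), and was not called by ip. Cdc25b, a phosphatase that activates Cdk1, had values of 4.69, 4.71 and 5.03 in iv saline mice and 5.24, 5.49 and 6.5 at iv 400 mg/kg, and 4.28, 4.44 and 4.53 in ip saline mice and 5.94, 6.28 and 6.76 at ip 400 mg/kg. It rose by 0.91 by iv and 1.93 by ip with no overlap of groups, while Cdc25a changed by 0.19 and 0.17 and was not called. Cdca5, whose promoter is printed above with paired CHR elements, had values of 2.52, 2.65 and 3.01 in iv saline mice and 5.52, 6.6 and 6.99 at iv 400 mg/kg. Its rise was 3.77 by iv and 3.88 by ip, again from saline values that all lay under 3.47. Cdca4, a transcriptional cofactor, rose by 1.00 and 1.22 by its leading probe set and by 1.00 in both routes by its second.

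The 3 mitotic kinesins named here rose by both routes. Kif22, a motor on chromosome arms, had values of 3.09, 3.13 and 3.37 in iv saline mice and 3.27, 4.43 and 5.03 at iv 400 mg/kg, and rose by 1.10 and 1.39. Kif11, which pushes the spindle poles apart, rose by 0.95 and 1.12, and Kif18a, which sets the length of spindle microtubules, by 0.58 and 0.92. By ip all 6 treated mice were above every saline mouse in each of the 3 genes. None of the 8 transport and other kinesins tested rose by either route, and Kifc2, a minus-end-directed motor, fell by 0.53 by ip (adjusted p = 0.042), a call lost without any of 9 of the 12 ip mice. Kif5b, a heavy chain of conventional kinesin, changed by 0.11 (95% interval -0.33 to 0.56) by iv and by 0.07 (-0.38 to 0.51) by ip, and its 5 probe sets ranged from a difference of -0.30 to 0.15 by iv and from -0.48 to 0.10 by ip. With no minimum on intensity 5 of the 13 transport kinesins fell by ip, and 4 of these, Kif17, Kif21b, Kif5a and Kif5c, had not met the minimum. Their means were near background in both groups. From ip saline to ip 400 mg/kg they went from 1.56 to 1.54 in Kif17 and from 2.56 to 2.26 in Kif21b. They went from 2.16 to 2.09 in Kif5a and from 2.61 to 2.49 in Kif5c. In Kif21b the highest ip saline mouse was at 3.47, beside a median of 2.38.

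Of the 9 centromere proteins tested, 5 rose and 0 fell at iv 400 mg/kg, against 6 that rose and 1 that fell at ip 400 mg/kg. Cenpf had values of 1.96, 1.97 and 2.12 in iv saline mice and 3.69, 5.03 and 5.43 at iv 400 mg/kg, and 1.92, 1.96 and 1.99 in ip saline mice and 5.23, 5.65 and 6.31 at ip 400 mg/kg. It rose by 2.87 and 3.74 from values far under the table median. Cenpe, a kinetochore motor, rose by 1.71 and 2.95, and Cenpk, of the constitutive centromere network, by 2.75 and 2.55. Cenpt, which links the centromere to the outer kinetochore, had values of 3.47, 4.22 and 4.53 in iv saline mice and 5.46, 6.23 and 6.55 at iv 400 mg/kg, and rose by 2.03 and 2.38. Cenph rose by 1.41 and 0.83. Cenpm and Cenpn did not meet the intensity minimum, and with no minimum rose by 1.03 and 0.90 by iv and by 0.80 and 0.97 by ip. Cenpb, which binds satellite DNA, and Cenpo were not called by either route. Cenpx, a histone-fold protein that also serves DNA repair, had values of 9.87, 10.07 and 10.22 in ip saline mice and 8.71, 9.16 and 9.81 at ip 400 mg/kg, with every treated mouse below every saline mouse. It fell by 0.85 (adjusted p = 1.2e-07) by ip, and by iv its change was -0.22 (adjusted p = 0.14).

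None of the 3 kinase inhibitors Cdkn1b, Cdkn1c and Cdkn2c was called by either route. Cdkn1b (p27) had values of 8.06, 8.5 and 8.95 in iv saline mice and 8.26, 8.57 and 8.7 at iv 400 mg/kg, and 8.93, 9.07 and 9.17 in ip saline mice and 8.83, 9.1 and 9.54 at ip 400 mg/kg. The groups overlapped, and the change was 0.01 (95% interval -0.29 to 0.31) by iv and 0.06 (-0.24 to 0.35) by ip. Cdkn1c (p57) changed by 0.17 and 0.00 with a standard error of 0.33, and Cdkn2c (p18) by 0.54 (adjusted p = 0.056) and 0.28 (adjusted p = 0.32). Cdk2ap1, which binds and restrains Cdk2, rose by 0.69 and 0.73 with all 6 treated mice above every saline mouse by both routes, and its second probe set rose by 0.38 and 0.3. Cdk2ap2 rose by 0.43 by iv, a call lost without saline mouse 1 or 2 or treated mouse 43, and was not called by ip.

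Cdkal1, a tRNA-modifying enzyme that shares no function with the kinases, fell most among members. It had values of 6.25, 6.72 and 7.14 in iv saline mice and 5.64, 5.91 and 6.39 at iv 400 mg/kg, and 7.49, 7.68 and 7.81 in ip saline mice and 5.83, 6.13 and 6.76 at ip 400 mg/kg. It fell by 0.76 (adjusted p = 7e-05) and by 1.45 (adjusted p = 5.3e-11), the latter to 0.366 of the saline level. Ccnc, the cyclin of the Mediator kinase module, had values of 6.86, 7.11 and 7.47 in ip saline mice and 6.33, 6.6 and 6.68 at ip 400 mg/kg, and fell by 0.53 and by 0.58. Cdc37l1, a co-chaperone of Hsp90, fell by 0.65 by ip. By iv its change was -0.42 (adjusted p = 0.05), and centring each array on its median made that a call (adjusted p = 0.041). Cdk7, the kinase of the general transcription factor TFIIH, fell by 0.32 by ip, and by iv its change was -0.19 (adjusted p = 0.08).

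**Figure D3:**
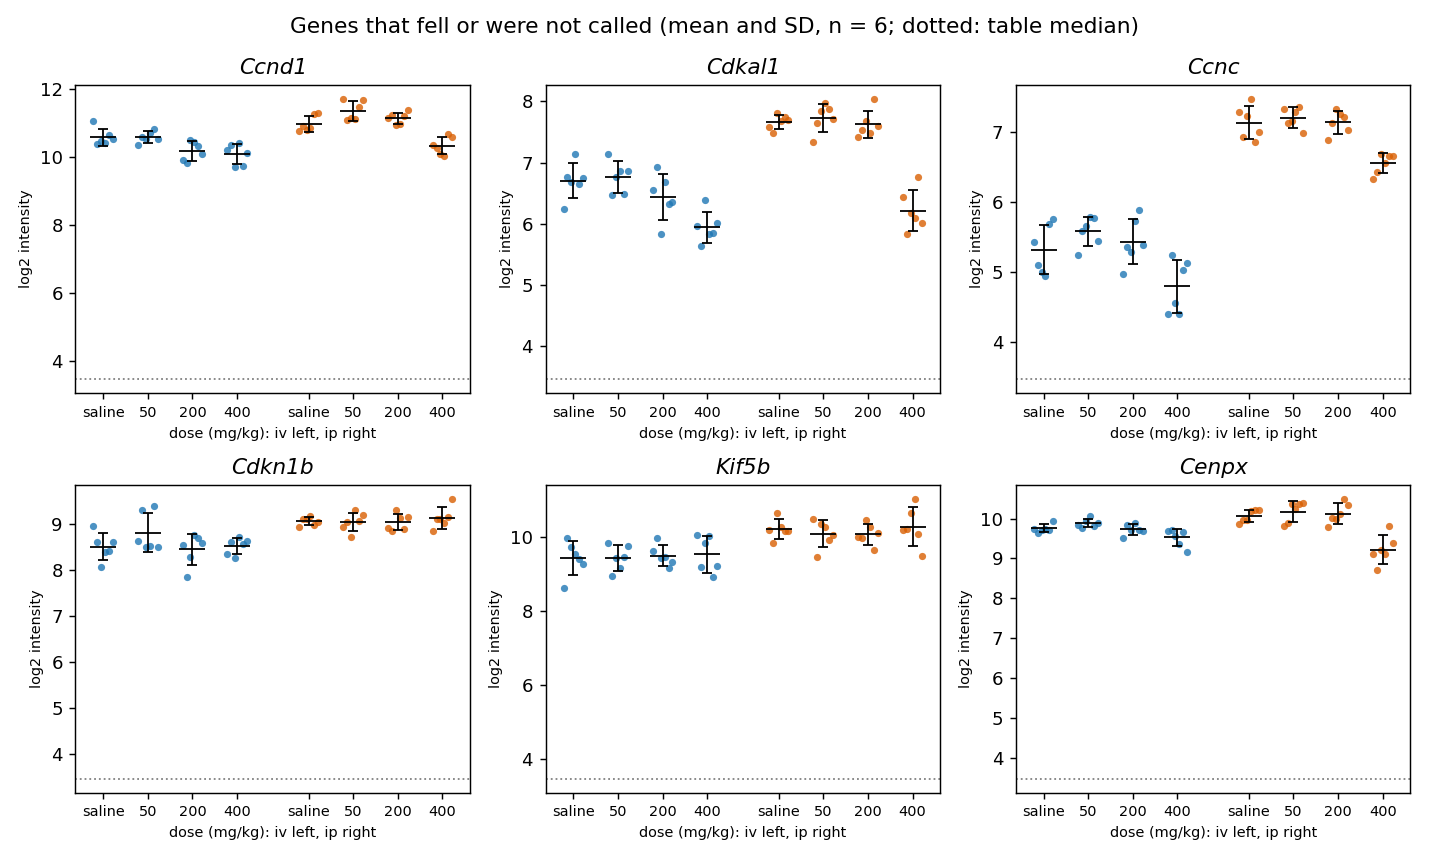
Log2 intensity of Ccnd1, Cdkal1, Ccnc, Cdkn1b, Kif5b and Cenpx in every mouse (points; 6 mice a group, iv in blue, ip in orange), with mean and SD (black) and the table median (dotted, 3.47). Ccnd1, Cdkal1 and Ccnc are lower at 400 mg/kg by both routes and Cenpx at ip 400 mg/kg, while Cdkn1b and Kif5b overlap between groups.

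Of the 8 other Cdk genes tested, 2 rose and 0 fell at iv 400 mg/kg, against 4 that rose and 1 that fell at ip 400 mg/kg. Cdk17, a kinase of the PCTAIRE family, rose by 0.81 and 0.69, and Cdk19, of the Mediator kinase module, rose by 0.73 by ip, while its iv change was 0.30 (adjusted p = 0.085). Cdk9, which releases paused RNA polymerase II, rose by 0.37 and 0.62, and its cyclin partner Ccnt2 by 0.39 and 0.67. Cdk11b, a kinase linked to transcription and splicing, rose by 0.29 by ip (adjusted p = 0.044), a call lost without any of 8 of the 12 ip mice. The iv call of Cdk9 was lost without saline mouse 1 (adjusted p = 0.1), and that of Ccnt2 without saline mouse 1 or treated mouse 47 or 48 (adjusted p = 0.13 at most). The probe sets for Ccnt2 disagreed, 1 of the 3 being lower at 400 mg/kg by both routes. Ccnl1, a cyclin of splicing, rose by 0.78 by ip and changed by -0.10 by iv, which was not called. Ccng2, associated with cell cycle arrest, rose by 0.63 by ip and changed by 0.10 by iv, which was not called. Ccng1, a p53 target, was not called by either route. Of the 6 Cdc42 partners, 4 rose by both routes, beside 26.6% of all genes tested. Cdc42ep4, an effector that shapes the actin and septin cytoskeleton, had values of 2.32, 2.66 and 3.15 in ip saline mice and 3.98, 4.12 and 4.37 at ip 400 mg/kg, and rose by 0.93 and 1.5. Cdc42ep1 rose by 0.79 and 1.23, Cdc42ep5 by 0.74 and 1.10, and Cdc42se2 by 0.36 and 0.70. The iv call of Cdc42se2 was lost without treated mouse 48 (adjusted p = 0.052). Cdc34, a ubiquitin-conjugating enzyme, rose by 0.39 by iv, a call lost without saline mouse 1 or treated mouse 44, and was not called by ip.

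At 200 mg/kg the routes gave different counts. By iv 6 of 76 members rose and 0 fell, 7.89% beside 7.36% of all genes tested (6.07% rising), so the count itself does not set the members apart. The 6 were Ccna2 (2.12 ± 0.36, adjusted p = 8.6e-05), Cdca5 (1.49 ± 0.30, adjusted p = 0.00071), Cenpt (0.88 ± 0.19, adjusted p = 0.0018), Cdk6 (0.91 ± 0.20, adjusted p = 0.0023), Cenpk (1.07 ± 0.26, adjusted p = 0.0049) and Cdc20 (1.18 ± 0.34, adjusted p = 0.021). With an unadjusted p under 0.05, 15 members would count. These standard errors pool the spread of all 8 groups, while the SD of Ccna2 was 1.48 at iv 200 mg/kg and 0.12 in iv saline mice. When iv saline and iv 200 mg/kg alone were fitted, 0 members were called, and with weights for each array 19 were. By ip 0 of 76 members were called, beside 0.087% of all genes, and 0 had an unadjusted p under 0.05. Ccna2 had values of 2.43, 2.61 and 2.79 at ip 200 mg/kg, within the range of ip saline mice.

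The iv 200 mg/kg mice differed widely from each other. In mice 25, 26, 27, 28, 29 and 30, in that order, Ccna2 was at 7.21, 3.79, 5.34, 3.47, 4.85 and 6.57. Of the 36 members that rose at iv 400 mg/kg, the number above the highest saline mouse was 27, 9, 22, 6, 18 and 18. Mouse 25 was thus closest to the 400 mg/kg mice, and mice 26 and 28 were closest to saline. Without mouse 28, 10 members were called at iv 200 mg/kg, and without mouse 25 or 30 the call of Cdc20 was lost (adjusted p = 0.13 at most). At iv 400 mg/kg mouse 45 was lowest, with 21 of the 36 above every saline mouse, against 31 to 34 in the other 5. At ip 400 mg/kg each mouse had 34 to 36 of 37 members above every ip saline mouse, and at ip 200 mg/kg each had 2 to 7. These members were chosen by their rise in the 400 mg/kg mice, so high counts in those mice follow from the choice. No such count over all genes is given here.

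**Figure D4:**
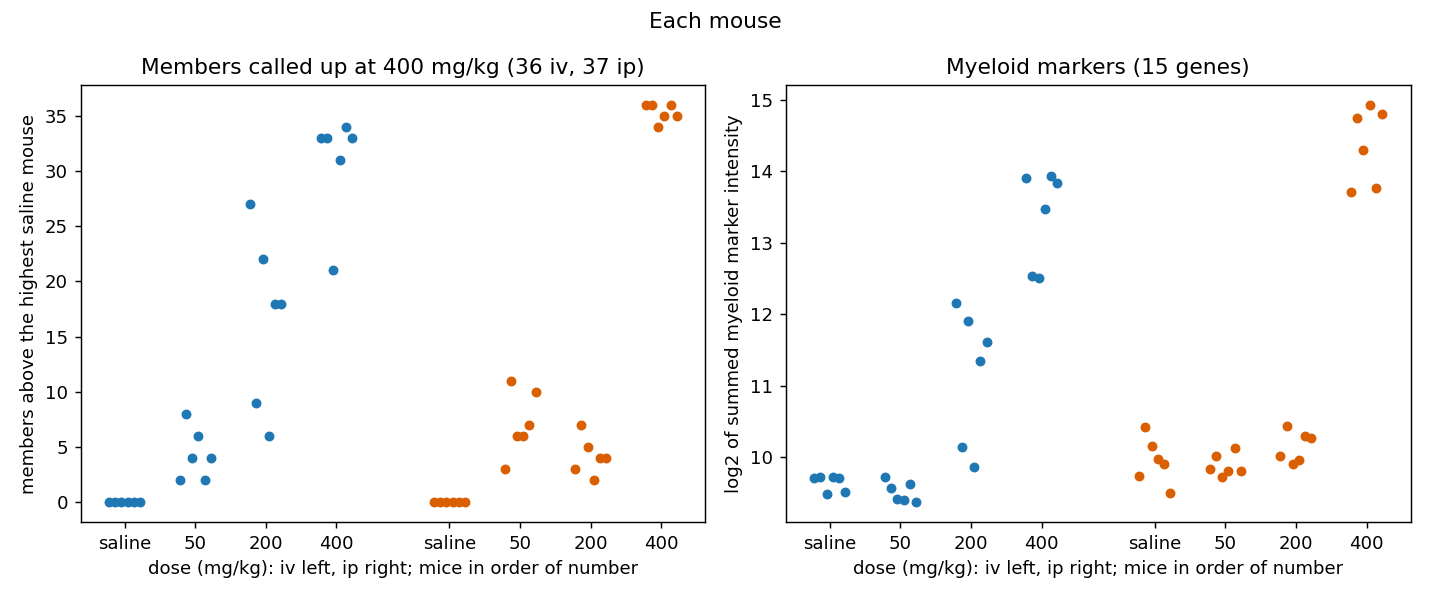
Left, for each mouse, the number of members that rose at 400 mg/kg of its route (36 for iv, 37 for ip) lying above the highest saline mouse of that route. Right, the log2 of the summed intensity of 15 myeloid marker genes in the same mice (iv blue, ip orange). The iv 200 mg/kg mice spread from 6 to 27 on the left and from 9.86 to 12.16 on the right, while the ip 200 mg/kg mice hold 2 to 7 on the left and 9.91 to 10.44 on the right.

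At 50 mg/kg 0 members were called by either route in limma, beside 0.54% of all genes tested by iv and 0.087% by ip. With an unadjusted p under 0.05 there were 4 by iv and 2 by ip. With weights for each array 3 were called at iv 50 mg/kg. The highest dose was also set against the middle one. At iv 400 against iv 200 mg/kg 24 members rose and 3 fell, 35.5% beside 31.2% of all genes (17.8% rising, 13.4% falling). At ip 400 against ip 200 mg/kg 35 rose and 8 fell, 56.6% beside 60.6% (35.2% rising, 25.4% falling). These comparisons share the 400 mg/kg mice with those against saline. Ccna2 rose between the 2 doses by 2.20 by iv and by 4.71 by ip.

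The effect of each dose against its own saline group was compared between routes with an interaction term. At 400 mg/kg 3 members differed, 3.95% beside 4.23% of all genes tested. The rise of Cdc25b was larger by ip by 1.03 ± 0.28 (adjusted p = 0.025), that of Cdc7 was larger by ip by 0.75 ± 0.23 (adjusted p = 0.049), and the change of Cenpx was lower by ip by 0.63 ± 0.18 (adjusted p = 0.033). The Cdc25b call was lost without iv mouse 44 or ip mouse 104 (adjusted p = 0.062 at most), the Cenpx call without any of 9 of 24 mice, and the Cdc7 call without any of 17. The second Cdc7 probe set did not show the rise in either route. At 200 mg/kg 1 member differed, 1.32% beside 0.975% of all genes. The change of Ccna2 was lower by ip by 1.99 ± 0.51 (adjusted p = 0.04), and this call was lost without any of 20 of 24 mice and with no minimum on intensity.

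Further genes of the cell cycle, all but Ccng1 outside these prefixes, were taken from lists chosen with earlier results of these data known. Of all genes tested, 30.7% rose and 19% fell at iv 400 mg/kg, and 36.3% rose and 25.1% fell at ip 400 mg/kg. Of 24 DNA replication genes tested, 22 rose and 1 fell at iv 400 mg/kg and 19 rose and 0 fell at ip 400 mg/kg. Rrm2, a subunit of the enzyme that makes deoxynucleotides, rose by 4.83 and 4.53, Lig1 (DNA ligase of the lagging strand) by 2.59 and 3.45, Dbf4, the activator of Cdc7, by 2.36 and 3.43, and Cdt1, which loads the helicase with Cdc6, by 2.38 and 1.87. Of 33 mitosis genes, 27 went up and 0 down at iv 400 mg/kg, with 28 up and 3 down at ip 400 mg/kg. Mki67, the proliferation marker Ki-67, rose by 4.49 and 5.64, Birc5 (survivin, of the chromosomal passenger complex) by 4.53 and 4.67, Cks1b, a Cdk subunit, by 3.70 and 3.86, and Aurka, a kinase of the spindle poles, by 3.49 and 3.51. The 3 that fell by ip, named after their values were seen, were Cit, Cks2 and Spc25, by 0.84, by 0.59 and by 0.61.

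Of 13 transcription factors and pocket proteins of the cycle, 6 rose and 3 fell by each route. Myc rose by 3.07 and 3.72, Rbl1, a pocket protein that is itself induced in S phase, by 1.5 and 0.98, E2f3 by 0.94 and 1.44, and E2f1 by 1.13 and 0.45. The genes that fell, named after their values were seen, were Rbl2, a pocket protein of quiescent cells (by 0.62 and by 0.50), and Tfdp2, an E2F partner (by 0.47 and by 0.46), by both routes, Rb1 by iv (by 0.45), and Foxm1, a transcription factor of mitotic genes, by ip (by 0.17, adjusted p = 0.026). Of 9 checkpoint and DNA damage genes, the member Ccng1 among them, 7 rose and 0 fell by each route. Cdkn1a, the p21 inhibitor left out of the members by the rule, rose by 1.79 and 2.38, Brca1 by 1.44 and 2.24, and Chek2, a checkpoint kinase, by 0.84 and 1.14. At iv 200 mg/kg 9 of the 24 replication genes, 9 of the 33 mitosis genes, 1 of the 13 factors and 1 of the 9 checkpoint genes rose. Of all genes tested 6.07% rose there. Without the minimum the 4 counts were 8, 7, 1 and 0.

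Markers of other cells and of the tubule moved in the same groups. All 15 myeloid markers tested rose at 400 mg/kg by both routes and 11 rose at iv 200 mg/kg. The shares of all genes tested were 26.6% and 6.07%. Their summed level, here and below the log2 of the summed intensity, lay between 9.49 and 9.73 in iv saline mice. It lay between 9.86 and 12.16 at iv 200 mg/kg and between 12.51 and 13.93 at iv 400 mg/kg. By ip it lay between 9.5 and 10.42 in saline mice, 9.91 and 10.44 at 200 mg/kg and 13.71 and 14.93 at 400 mg/kg. In iv 200 mg/kg mice 25 to 30 it was 12.16, 10.15, 11.9, 9.86, 11.35 and 11.61, so mice 26 and 28, lowest in Ccna2, were lowest here too. All 8 fibroblast and pericyte markers rose at 400 mg/kg by both routes, their summed level going from 8.89 to 9.86 in iv saline mice to 11.24 to 12.99 at iv 400 mg/kg, and from 9.06 to 9.72 in ip saline mice to 12.47 to 13.43 at ip 400 mg/kg.

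All 10 proximal tubule markers fell at 400 mg/kg by both routes, beside 16.3% of all genes tested. Their summed level went from 14.75 to 15.49 in iv saline mice to 12.3 to 14.58. By ip it went from 15.48 to 15.75 in saline mice to 12.07 to 13.81. Of 13 markers of other nephron segments, 9 fell by iv and 10 by ip, beside 19% and 25.1% of all genes tested. The part of these cells in the changes of the members was not tested. The 3 neutrophil markers named here did not meet the intensity minimum, and their summed level lay between 3.8 and 4.59 in all groups. Of 9 T and NK cell markers named, 1 was tested, which was not called by iv and fell by 0.39 by ip, with summed levels between 6.02 and 6.91. With no minimum on intensity 2 of the 9 rose and 3 fell at ip 400 mg/kg, and the means of Gzma and Cd3d there were 3.56 and 2.93, against 2.65 and 2.15 in ip saline mice. Of 7 B and plasma cell markers, only Ighm, an immunoglobulin heavy chain, was tested, and it rose by 1.31 and 2.51. Without the minimum, 1 of the 7 rose and 0 fell at iv 400 mg/kg, while 2 rose and 4 fell at ip 400 mg/kg. The summed level of the 7 lay between 5.76 and 6.07 in iv saline mice, 6.39 and 7.2 at iv 400 mg/kg, 5.68 and 6.03 in ip saline mice and 5.86 and 8.34 at ip 400 mg/kg. Of 3 red blood cell markers tested, 1 went up and 1 down at iv 400 mg/kg, with 1 up and 2 down at ip 400 mg/kg. The summed level of the 4 named went from between 7.75 and 8.68 to between 6.75 and 8.4 by iv, and from between 9.08 and 9.8 to between 7.09 and 8.37 by ip. Of 7 endothelial markers, 2 were lower at iv 400 mg/kg, 1 was lower at ip 400 mg/kg and 0 were higher in either (adjusted p under 0.05).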

How the data were processed

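RNA of 48 kidneys was measured on single-colour Affymetrix arrays, 1 mouse each. The authors computed linear intensity values with GCRMA for 45101 probe sets, per the submitters' processing notes. The sources used here do not say with what version, or whether all arrays were normalized at once. Log2 was taken with no offset.

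Values and identifiers are out of step in the table used here. Following earlier work on these data, 3 stretches of 2500, 6750 and 1750 rows were named at offsets of 64, -47 and -16168 rows. Levels of row pairs of 1 gene correlated there at 0.542, 0.554 and 0.636, beside at most 0.376, 0.332 and 0.395 at any other offset within 300 rows. This named 10198 rows (22.6%); the rest are unnamed here. Per gene the row with the highest mean was used.

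limma 3.58.1 in R 4.3.3 (lmFit, eBayes with trend) fitted all 8 groups, 40 residual degrees of freedom, with Benjamini-Hochberg adjustment over 5745 genes and a threshold of 0.05. It was tested on simulated data. Replicates are separate mice, each with its own number, so no pairing was used. The number of arrays limits the precision.

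Members and lists were chosen with earlier results of these data known. Named by rule were, per role list, up to 3 called members with the largest change at 400 mg/kg, those falling over 2-fold, a list of well-known division genes, up to 5 per comparison called at lower doses or between routes, and up to 4 of each pathway list, of which 1 gene is not reported here. Cdc42se2, Cdk7, Cenpb, Cenph, Cenpm, Cenpn, Cenpo, Ccnf, Cdc16, Cdc25a, Cdc27, Kif17, Kif21b, Kif5a, Kif5b and Kif5c were named after their values were seen. The promoter sequences are RefSeq's.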

Additional observations from a re-analysis of the deposited data

Results flagged for a closer look

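In 34 members and 8 groups, 272 sets of 6 mice, 27 sets (9.93%) held 1 mouse set apart from the other 5 by more than Dixon's 95% critical ratio, where chance gives about 1 in 20.

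At iv 400 mg/kg mouse 45 was far below the others in Ccna2 (6.41, the next 7.42), Cdca5 (5.52, the next 6.44) and Cenpf (3.69, the next 4.92). At ip 50 mg/kg mouse 68 was above the others in Ccna2 (4.07, the next 2.94), Cenpe (3.52, the next 2.84), Cenpf (2.5, the next 1.95) and Ccng1 (11.74, the next 11.31). It was also highest in Cdca5 (2.82, the next 2.65), by a small gap between values under 3.47. No member was called in that group. Mouse 72 of that group was highest in Cenph (3.96) and Cenpk (3.57) and lowest in Cdc25b (4.12). Mouse 71 was lowest there in Ccne1 (3.62) and mouse 69 in Mcm3 (2.8).

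At iv 200 mg/kg mouse 25 was highest in Cdc45 (4.12) and Cenph (3.64). At iv 50 mg/kg mouse 9 was lowest in Cdc25b (3.2, the next 4.63) and highest in Cenph (3.56). In iv saline mice, mouse 1 was highest in Kif18a (3.41) and Cenpe (4.17, the next 3.08) and lowest in Cdc42ep4 (2.06, the next 3.21), and mouse 6 was highest in Cenpx (9.94). Cdc20 was lowest in ip saline mouse 63 (3.37, the next 4.28).

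At ip 200 mg/kg mouse 86 was lowest in Ccne1 (3.21), mouse 90 lowest in Cdc25b (4.38) and mouse 87 highest in Cenpk (3.33). At ip 400 mg/kg mouse 106 was lowest in Kif11 (3.72, the next 4.47) and mouse 105 highest in Kif18a (4.95).

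Effects of the routes differed by the interaction test for Cdc25b (1.03), Cdc7 (0.75) and Cenpx (-0.63) at 400 mg/kg and for Ccna2 (-1.99) at 200 mg/kg, each as ip minus iv.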

How the results depend on the processing

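Of 110 counts of members called under alternative settings, 87 stayed within 1.5 times the reported count. At iv 200 mg/kg the count of 6 became 19 with array weights, 0 with only the compared groups in the fit and 1 with names from the stretch of 6750 rows only. At iv 50 mg/kg the count of 0 became 1 with quantile normalization, with names as listed beside the values, and without the highest-median array of each iv group (added after seeing the data), and 3 with array weights. The route difference at 400 mg/kg, 3 members, became 6 with array weights, 5 with names as listed, and 1 with only the compared groups or with the stretch of 6750 rows only. The route difference at 200 mg/kg, 1 member, became 13 with array weights and 0 with centring, no minimum, only the compared groups, the mean over probe sets, names as listed, names from the stretch of 6750 rows only, and the highest-median arrays left out. With names from the stretch of 6750 rows only, fewer members were named and 17 were called at iv 400 mg/kg, 19 at ip 400 mg/kg, 12 at iv 400 against 200 mg/kg and 19 at ip 400 against 200 mg/kg. Other causes were not tested. With names as listed beside the values, 23 rose and 12 fell at iv 400 mg/kg and 29 rose and 18 fell at ip 400 mg/kg.

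Leaving out each mouse in turn gave 37 to 43 members at iv 400 mg/kg, 41 to 44 at ip 400 mg/kg, 5 to 10 at iv 200 mg/kg, 0 to 1 at iv 50 mg/kg (1 without saline mouse 1), 0 at ip 200 and ip 50 mg/kg, 25 to 30 at iv 400 against 200 mg/kg, 40 to 44 at ip 400 against 200 mg/kg, and 0 to 6 and 0 to 4 for the route differences at 400 and 200 mg/kg. The count for the route difference at 400 mg/kg was 0 without iv mouse 44 or ip mouse 104, 1 without iv mouse 2 or 43 or ip mouse 64, 65 or 66, 5 without iv mouse 48 and 6 without ip mouse 107. That at 200 mg/kg was 3 without iv mouse 26, 4 without iv mouse 28, 1 without iv mouse 2 or ip mouse 63, and 0 without any other. In 33 of 39 members at iv 400 mg/kg and 41 of 44 at ip 400 mg/kg the call held in all 12 such fits.

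Centring each array on its median took the median change of all genes from 0.09 to 0.03 at iv 400 mg/kg and from 0.11 to 0.01 at ip 400 mg/kg, with 32 members rising and 6 falling by iv and 35 and 10 by ip. Direction reversed for Ccnk at ip 400 mg/kg under quantile normalization (-0.24, from 0.00 and not called) and for Cdc27 with the mean over probe sets (0.47, from -0.06 and not called). Of 21 members with several probe sets, 12 had both signs in at least 1 route (Ccnh, Ccnt2, Cdc27, Cdc37, Cdc7, Cdk12, Cdk5r1, Cenpo, Kif1b, Kif1c, Kif3b and Kif5b). No paired analysis was possible because every mouse has its own number and no number is shared between groups.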
